A study of Tachysurus fulvidraco x Tachysurus vachelli with 9 samples.

Results

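The genes described here are the peptidases and carbohydrases that break dietary protein and sugar down to absorbable units in the intestine of the hybrid yellow catfish, with relatives that share their names. Members were chosen from product names: 129 rows of the gene table held at least 1 of 14 words (trypsin, elastase, carboxypeptidase, aminopeptidase, dipeptidase, dipeptidyl peptidase, meprin, enteropeptidase, neprilysin, maltase, sucrase, amylase, trehalase and lactase). Of these, 14 inhibitors and 7 genes that KEGG places in the lysosome or the complement cascade were left out, which gave 108 of 26163 genes. Grouped by what their products do, they were 23 pancreatic enzymes, 1 enteropeptidase, 17 brush border peptidases, 5 brush border carbohydrases, 17 intracellular peptidases, 7 peptidases of the endoplasmic reticulum (ER) or lysosome, 20 prohormone, matrix and surface proteins, 3 neurotrypsins and 15 enzymes of tubulin glutamylation. Tubulin enzymes came in by name, since the word polyglutamylase contains the letters of amylase.

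Posterior intestine was sequenced from 3 groups of fish with 3 libraries each, and every fish was the cross of a *Tachysurus fulvidraco* female with a *Pseudobagrus vachellii* male. Str and Rec fish were shaken for 16 h in oxygen-filled transport bags. Rec fish were then kept for a further 96 h before sampling, Str fish were taken at the end of the 16 h, and Ctrl fish were untreated. Food was withheld before transport. No source used here says whether Rec fish were fed during recovery, so recovery time and feeding cannot be told apart. The paper took Ctrl from its group with no transport time and describes no feeding in the bags. Transport and a longer time without food therefore cannot be told apart in Str vs. Ctrl. Bags held many fish, and which bag a sequenced fish came from is unknown. P-values therefore measure the spread between these fish. Deposited counts summed to between 54829614 and 73110636 in Rec, 48605412 and 60279138 in Str, and 60670586 and 63899568 in Ctrl. Villin (*vil1*), a structural protein of the intestinal microvillus, stood at 113 to 419 FPKM in Rec, 98.0 to 120 FPKM in Str and 153 to 242 FPKM in Ctrl. Every library thus held an intestinal marker, which does not show that the sample was the posterior segment. Markers of the posterior enterocyte were uneven, as given below, and whether the segment was the same in every library was not tested. FPKM is fragments scaled to gene length and library depth, which allows levels to be compared between genes.

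Protein digestion in vertebrates runs in steps. The exocrine pancreas secretes trypsin, chymotrypsin, elastase, carboxypeptidases and amylase as precursors or active enzymes, and enteropeptidase on the intestinal surface starts the cascade by activating trypsinogen. Enzymes anchored in the microvillus membrane of the enterocyte, the brush border, then trim peptides and split disaccharides, and peptidases inside the enterocyte finish absorbed di- and tripeptides to amino acids. In fish the posterior intestine also takes up intact protein by endocytosis, and pancreatic tissue often lies scattered along the gut and its vessels.

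Levels of the 108 members covered a wide range. Averaged over the 9 libraries, 13 members reached at least 100 FPKM, 39 reached at least 10 FPKM, and 34 stayed under 1 FPKM. The brush border peptidases were the most abundant class, with a summed level of 4160.5 to 6152 FPKM in Rec, 2031 to 3829 FPKM in Str and 4048 to 4816 FPKM in Ctrl. Summed over the 5 brush border carbohydrases, the level was 479.9 to 664 FPKM in Rec, 74.2 to 177 FPKM in Str and 116 to 302 FPKM in Ctrl. Intracellular peptidases summed to 1627 to 2056 FPKM in Rec, 499.97 to 1059 FPKM in Str and 1126 to 1393 FPKM in Ctrl. All Rec libraries lay above all Str libraries for each of these 3 sums. For the peptidase sums Str lay below Ctrl without overlap, whereas the carbohydrase sums of Str and Ctrl overlapped.

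**Figure D1:**
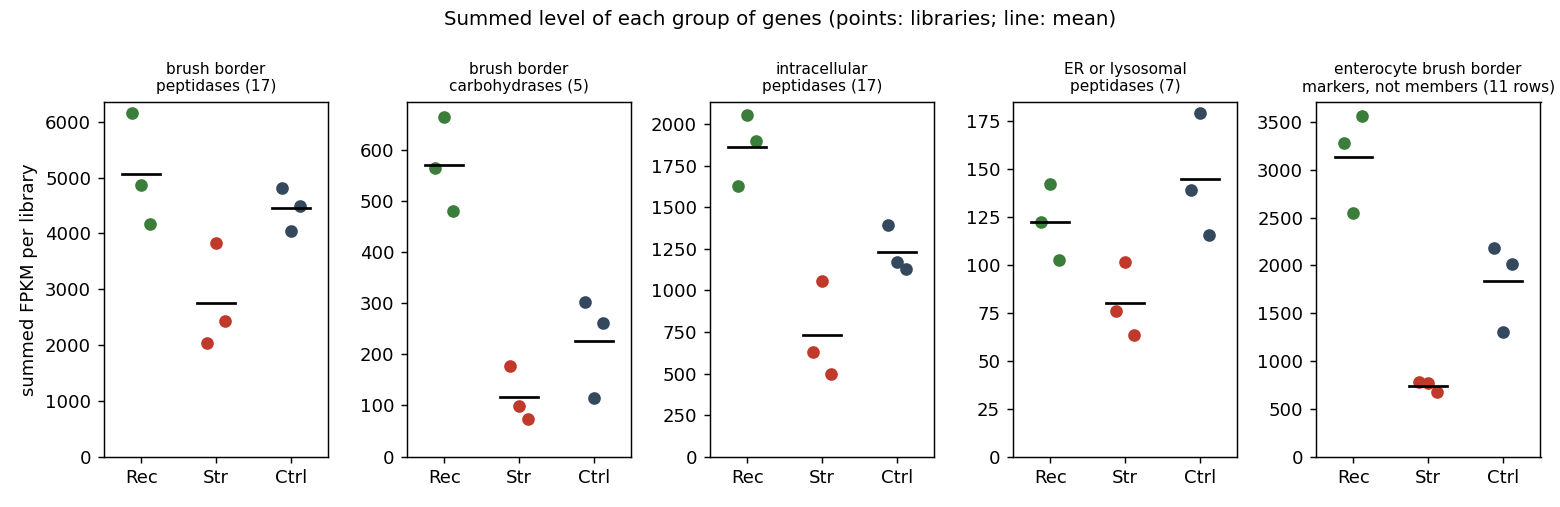
Summed FPKM (y axis) of 4 classes of members and of 11 rows of non-member enterocyte markers, in each library of Rec, Str and Ctrl (points), with the mean of 3 libraries (line). The markers include transcription factor genes and *fabp2*, which alone reached 2491 FPKM in Rec-3. Brush border peptidases reach 4160.5 to 6152 FPKM in Rec, 2031 to 3829 FPKM in Str and 4048 to 4816 FPKM in Ctrl, and the non-member genes follow a similar order of groups.

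Of the 108 members, 70 had at least 1 FPKM in at least 3 libraries and were tested among 17244 genes with edgeR's quasi-likelihood test. None of the 70 passed that filter through 1 group only. The other 38 were not tested: 23 stayed under 1 FPKM in every library, and 15 reached it in 1 or 2 libraries. A member was said to rise or fall when its Benjamini-Hochberg adjusted p over all 17244 genes was below 0.05.

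In Str vs. Ctrl, which compares fish at the end of 16 h of transport with untreated fish, 3 of 70 members rose and 2 fell. The backgrounds were 2.78% of all tested genes higher and 3.10% lower. These shares of the members were 4.29% and 2.86%. The median log2 fold change was −0.28 over the members and −0.00 over all tested genes. In Rec vs. Str, which asks what changed over the 96 h after transport, 11 members rose and 3 fell, or 15.7% and 4.29% of those tested, against 5.03% and 4.11% of all tested genes. The median log2 fold change was 0.60 over the members and 0.03 over all tested genes. Rec vs. Ctrl called 0 members and 0 genes in either direction, a background of 0.00%. Str vs. Ctrl and Rec vs. Str share the Str libraries, so a member set apart in Str moves in opposite directions in them.

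Over all tested genes, 5.03% rose and 4.11% fell in Rec vs. Str. All 3 tested carbohydrases rose in this comparison and none fell. One of them, LOC113654132, stayed under 1 FPKM in every Str library. It met the filter through Rec and Ctrl libraries only, which favoured a level higher in Rec than in Str. Of 15 tested brush border peptidases 3 rose and 1 fell, and of 16 tested intracellular peptidases 4 rose and 1 fell. Of 2 tested neurotrypsins 1 rose, and of 13 prohormone, matrix and surface proteins 1 fell. None of 6 pancreatic enzymes, 7 ER or lysosomal peptidases and 7 tubulin enzymes passed the test, nor did enteropeptidase.

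**Figure D2:**
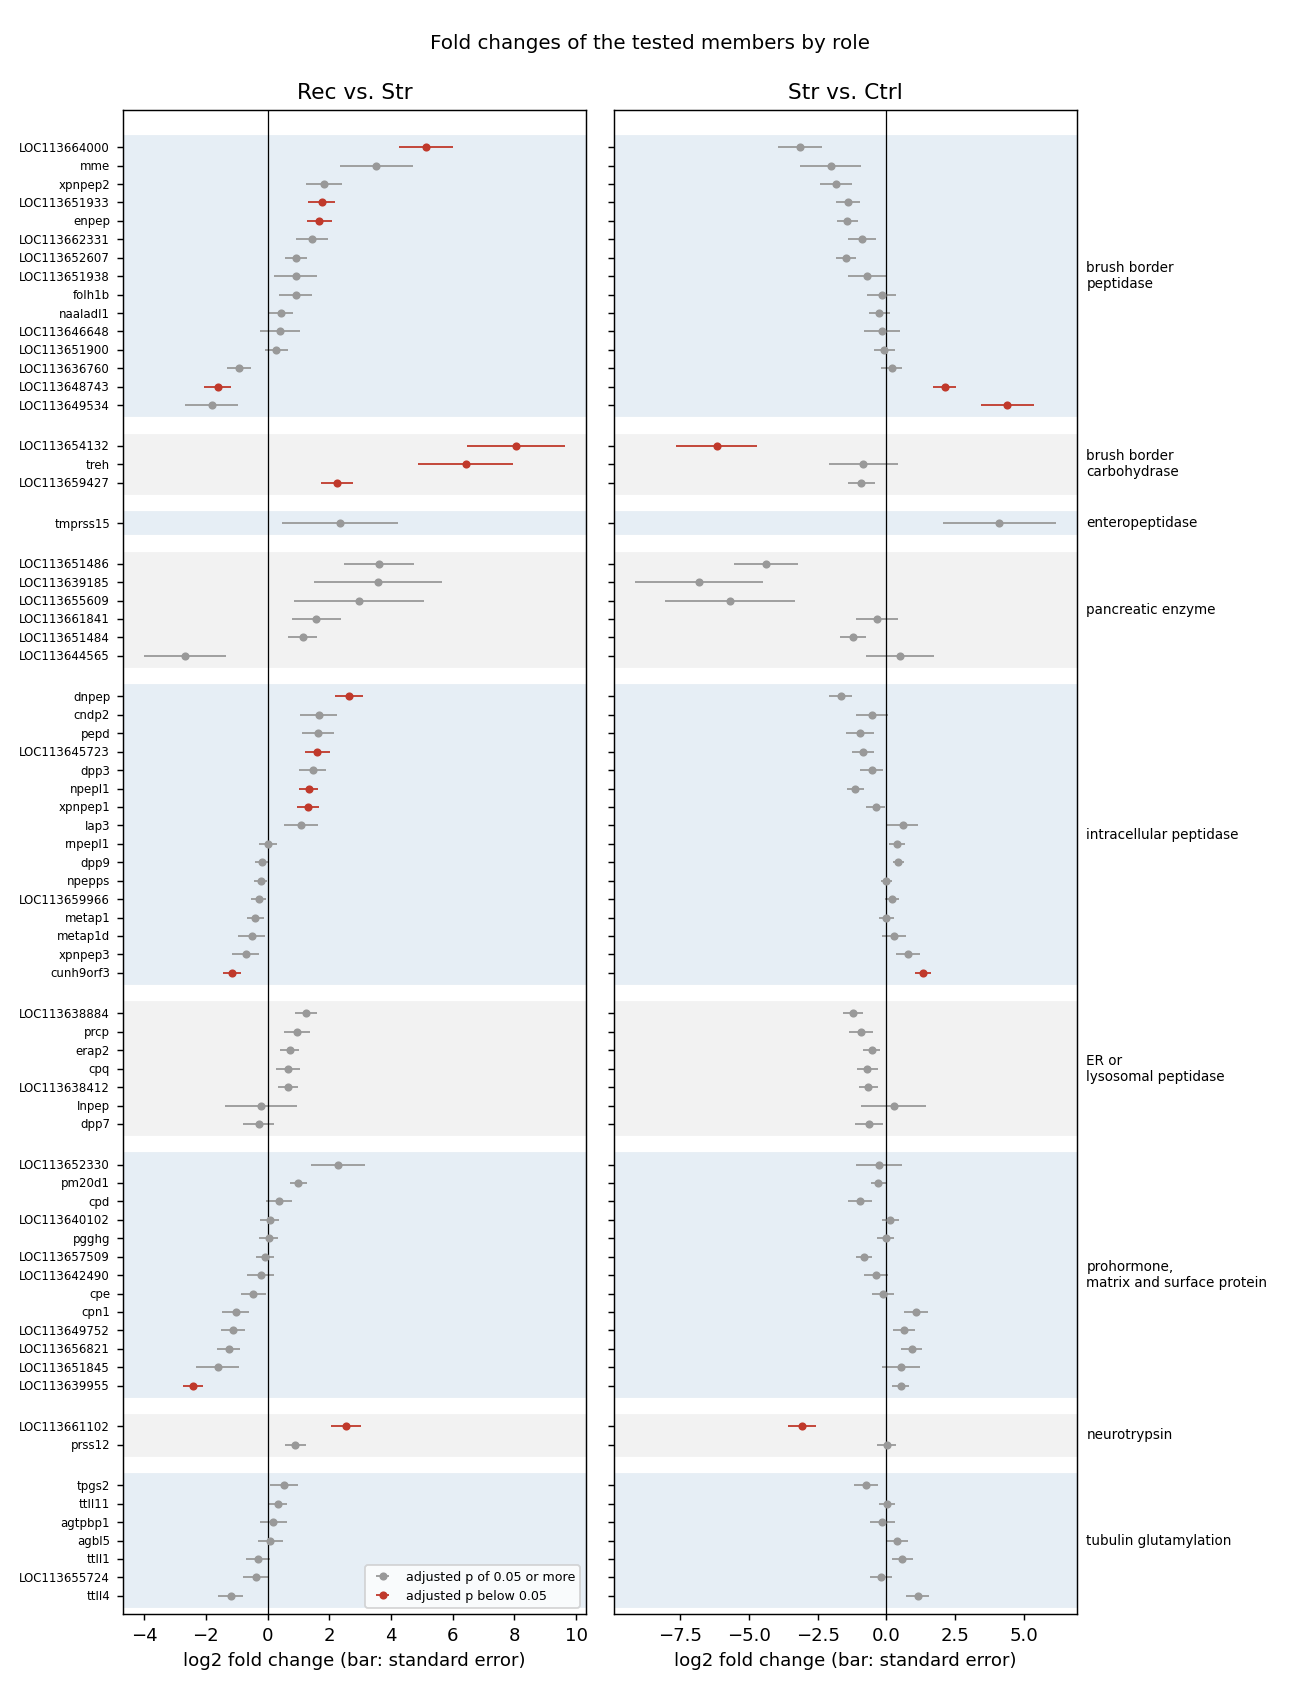
Log2 fold changes (x axis, edgeR) of the 70 tested members, 1 per line and grouped by role, in Rec vs. Str (left) and Str vs. Ctrl (right), with standard errors as bars. Red points passed an adjusted p below 0.05, and 14 did so in Rec vs. Str against 5 in Str vs. Ctrl.

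Aminopeptidases of the brush border, which remove amino acids from the N-terminus of peptides, were led by LOC113651933, an aminopeptidase N-like gene and the most abundant of all members. It stood at 3030.3, 2322 and 1819 FPKM in Rec, 516, 1112 and 669.9 FPKM in Str, and 2290.4, 1844 and 2032 FPKM in Ctrl. Every Str library lay below every library of both other groups, and Rec and Ctrl overlapped. It rose in Rec vs. Str by 1.76 ± 0.44 log2 (SE, adjusted p = 0.0392). In Str vs. Ctrl the log2 fold change was −1.39 ± 0.43, which did not pass (adjusted p = 0.0932). This gene alone made up 43.7% to 49.3% of the summed brush border peptidase level in Rec, 25.4% to 29.0% in Str and 45.2% to 47.6% in Ctrl. Its neighbour LOC113651938, named aminopeptidase Ey-like, lies 2129 bases away and stayed at 2.91 FPKM or less. Their sequences were not compared, and whether reads were split between them is unknown.

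Glutamyl aminopeptidase (*enpep*), which removes acidic residues and also cleaves angiotensin II in mammals, showed the same arrangement. It was at 343, 295 and 778 FPKM in Rec, 108, 171 and 183 FPKM in Str, and 365, 451 and 469 FPKM in Ctrl. Rec and Ctrl overlapped, and Str lay below both. The rise in Rec vs. Str was 1.68 ± 0.40 log2 (adjusted p = 0.0332). In Str vs. Ctrl it was lower by −1.42 ± 0.39 log2, short of the threshold (adjusted p = 0.0660). A second aminopeptidase N gene, LOC113652607, had 124, 172 and 94.4 FPKM in Rec, 85.0, 75.4 and 68.2 FPKM in Str, and 206, 249.5 and 189 FPKM in Ctrl. It was the abundant member of this class for which Rec stayed below Ctrl in all libraries, yet no comparison passed the test for it (adjusted p = 0.0509 for Str vs. Ctrl, 0.140 for Rec vs. Str, 0.892 for Rec vs. Ctrl). Membrane Xaa-Pro aminopeptidase (*xpnpep2*), which opens peptides with proline in the next position, had 505, 281 and 146 FPKM in Rec, 85.5, 149 and 50.5 FPKM in Str, and 425, 289 and 303 FPKM in Ctrl. Its Rec and Str libraries overlapped, and its log2 fold changes of 1.83 ± 0.58 in Rec vs. Str and −1.81 ± 0.58 in Str vs. Ctrl did not pass (adjusted p = 0.0810 and 0.0995). LOC113652607 and *xpnpep2* were picked out after their values were seen.

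Meprins are membrane metalloendopeptidases that cut inside peptides and, in mammals, also release mucin from the epithelial surface. LOC113664000, meprin A subunit beta, had 201, 336 and 31.5 FPKM in Rec, 5.68, 5.76 and 7.32 FPKM in Str, and 47.9, 31.9 and 92.5 FPKM in Ctrl. Its 3 Str libraries lay close together and far below all others, while Rec-3 lay at the lower end of Ctrl. It rose by 5.13 ± 0.87 log2 in Rec vs. Str (adjusted p = 0.0132), a call that was lost only without Str-3 (adjusted p = 0.0572). Str vs. Ctrl gave −3.14 ± 0.79 log2 and an adjusted p of 0.0506. The second gene, LOC113662331, was more abundant and varied less, with 432, 379 and 227 FPKM in Rec, 187, 149 and 87.2 FPKM in Str, and 372, 157 and 252 FPKM in Ctrl. Rec lay above Str in all libraries and Str overlapped Ctrl. Its log2 fold changes of 1.43 ± 0.51 in Rec vs. Str and −0.89 ± 0.51 in Str vs. Ctrl did not pass (adjusted p = 0.112 and 0.334).

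Carboxypeptidase O removes acidic residues from the C-terminus and is bound to the brush border membrane in mammals. Both of its loci were higher in Str than in Ctrl in all libraries, whereas LOC113651933 and *enpep* were lower. Such separation was common. In Str vs. Ctrl the groups did not overlap for 14.4% of all tested genes that were higher and 16.1% that were lower. Among the 70 tested members these were 11 higher and 15 lower. LOC113648743 was at 202, 225 and 189 FPKM in Rec, 393, 1069 and 591 FPKM in Str, and 101, 207 and 195 FPKM in Ctrl. All Str libraries lay above all libraries of both other groups. It rose in Str vs. Ctrl by 2.13 ± 0.43 log2 (adjusted p = 0.0244) and fell in Rec vs. Str by 1.62 on the log2 scale (SE 0.42, adjusted p = 0.0458). Its share of the summed brush border peptidase level was 3.28% to 4.61% in Rec, 19.3% to 27.9% in Str and 2.09% to 5.12% in Ctrl. LOC113649534, also carboxypeptidase O-like, was at 12.4, 5.97 and 17.5 FPKM in Rec, 17.5, 16.7 and 100.2 FPKM in Str, and 3.72, 1.55 and 0.622 FPKM in Ctrl. Str-3 was far above the other libraries, and both Str and Rec lay above Ctrl without overlap. The rise in Str vs. Ctrl was 4.42 ± 0.96 log2 (adjusted p = 0.0313), and Rec vs. Str gave −1.82 ± 0.86 log2 (adjusted p = 0.215). In Rec vs. Ctrl it was at 2.60 ± 0.88 log2, with an unadjusted p of 0.0158 and an adjusted p of 0.822.

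**Figure D3:**
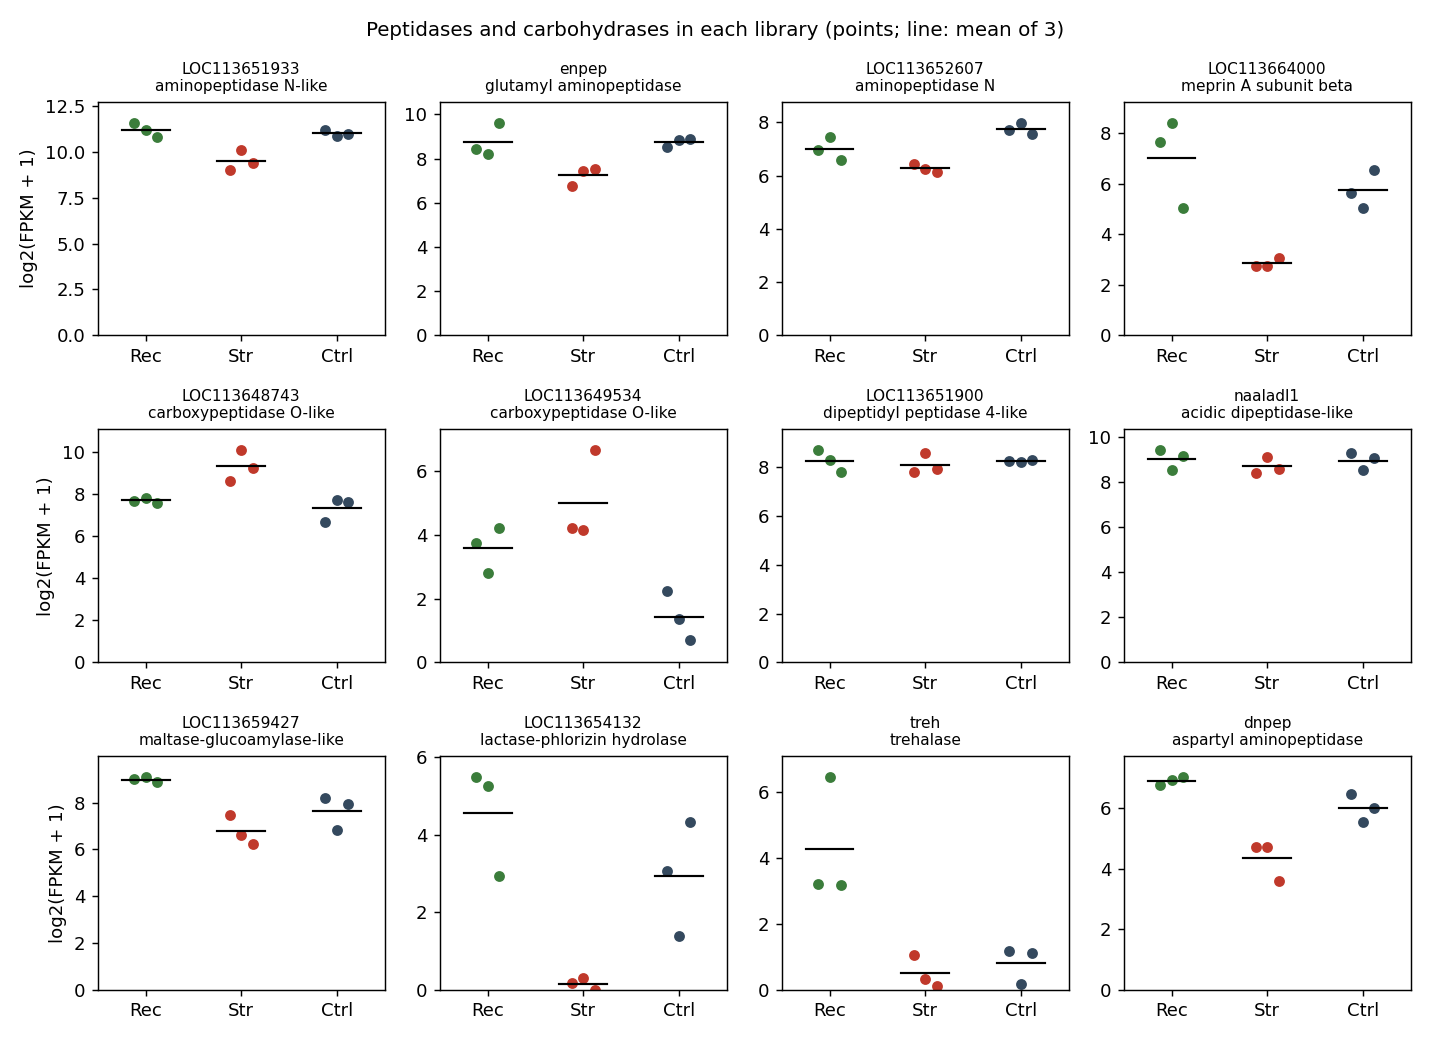
Level as log2(FPKM + 1) (y axis, from 0) of 12 members in each library of Rec, Str and Ctrl (points), with the mean of 3 libraries (line). The aminopeptidases, meprin and carbohydrases are lowest in Str or share low levels between Str and Ctrl. Carboxypeptidase O-like LOC113648743 is highest in Str (393 to 1069 FPKM), and LOC113649534 is highest in Str-3 but overlaps between Str and Rec. LOC113651900 and *naaladl1* overlap between all groups.

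Several abundant brush border peptidases did not separate the groups. Dipeptidyl peptidase 4-like LOC113651900, whose product removes dipeptides ending in proline or alanine and inactivates incretin hormones in mammals, had 409, 309 and 222 FPKM in Rec, 222, 376 and 239 FPKM in Str, and 297, 295 and 313 FPKM in Ctrl. All 3 groups overlapped, and the log2 fold changes were 0.29 ± 0.37 in Rec vs. Str and −0.07 ± 0.37 in Str vs. Ctrl (adjusted p = 0.676 and 0.944). *naaladl1*, an acidic dipeptidase-like protein of the ileum in mammals, ranged from 376 to 683 FPKM in Rec, 339 to 548 FPKM in Str and 373 to 619.9 FPKM in Ctrl, with 0.45 ± 0.38 log2 in Rec vs. Str and −0.25 ± 0.38 log2 in Str vs. Ctrl. Dipeptidase 1 (LOC113646648) ranged from 40.8 to 149.8 FPKM in Rec, 23.9 to 116 FPKM in Str and 48.7 to 115 FPKM in Ctrl. *folh1b*, a putative relative of the folate-releasing carboxypeptidase, ranged from 21.3 to 51.0 FPKM in Rec, 10.3 to 36.8 FPKM in Str and 20.9 to 28.6 FPKM in Ctrl. *naaladl1*, LOC113646648 and *folh1b* were picked out after their values were seen. Apart from neprilysin (*mme*), the remaining tested genes of the class, LOC113651938 and the dipeptidase 2-like LOC113636760, stayed at 2.91 FPKM or less. Of the 2 untested ones, another aminopeptidase N locus, LOC113654188, was at 0.166, 0.271 and 0.302 FPKM in Rec, 0.931, 1.16 and 2.28 FPKM in Str, and 0.408, 0.421 and 0.675 FPKM in Ctrl, so that Str lay above both other groups without overlap and Rec below Ctrl. The other was a second dipeptidyl peptidase 4-like locus, LOC113654129, at up to 0.401 FPKM.

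Brush border carbohydrases split disaccharides and starch fragments into glucose and other monosaccharides. Maltase-glucoamylase, LOC113659427, carried most of their summed level, with 512, 539 and 464 FPKM in Rec, 175, 97.9 and 74.1 FPKM in Str, and 294, 114 and 242 FPKM in Ctrl. Rec lay above both other groups in every library, and Str overlapped Ctrl. It rose by 2.26 ± 0.51 log2 in Rec vs. Str (adjusted p = 0.0296). Against Ctrl it was higher in Rec by 1.35 ± 0.50 log2, with an unadjusted p of 0.0227 that did not pass adjustment (0.827).

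Lactase-phlorizin hydrolase, LOC113654132, hydrolyses lactose and glycosides of dietary plants and lipids in mammals. It had 43.5, 37.1 and 6.64 FPKM in Rec, 0.121, 0.235 and 0 FPKM in Str, and 7.38, 1.61 and 18.9 FPKM in Ctrl. Its Str libraries held 49, 91 and 0 counts, against 638 to 7764 in Ctrl, so the gene was nearly undetected after transport. It fell in Str vs. Ctrl by 6.17 on the log2 scale (SE 1.47, adjusted p = 0.0417) and rose in Rec vs. Str by 8.06 ± 1.59 (adjusted p = 0.0199). With a library at 0 both sizes depend on how the fit treats zeros. The gene met the filter through Rec and Ctrl libraries only, which favoured a level lower in Str. The fall held without 1 of the 9 libraries only (adjusted p up to 0.120), and the rise was lost without Str-1 or Str-3 (up to 0.0635).

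Trehalase (*treh*), which splits the insect and fungal sugar trehalose, had 8.22, 86.1 and 8.05 FPKM in Rec, 1.09, 0.254 and 0.0736 FPKM in Str, and 1.23, 0.137 and 1.14 FPKM in Ctrl. Rec lay above both other groups without overlap, and Rec-2 stood far above its own group. The rise in Rec vs. Str was 6.42 ± 1.54 log2 (adjusted p = 0.0350), and without Rec-2 the call was lost (4.11 log2, adjusted p = 0.0914). Rec vs. Ctrl gave 5.59 ± 1.48 log2 with an unadjusted p of 0.00396 and an adjusted p of 0.812. Of 2 lactase-like loci that were not tested, LOC113636835 was at 0.238, 1.26 and 1.22 FPKM in Rec, 0.0796 FPKM or less in Str and 0.162 FPKM or less in Ctrl, and LOC113652662 was at 0.215 FPKM or less throughout.

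Enteropeptidase and neprilysin were uneven between the Rec libraries. Enteropeptidase (*tmprss15*) had 0.464, 35.1 and 0.0154 FPKM in Rec, 5.32, 2.81 and 0.482 FPKM in Str, and 0.176, 0.0294 and 0.296 FPKM in Ctrl. All Str libraries exceeded all Ctrl libraries, but a single Rec library held most of its signal. Its log2 fold changes of 2.34 ± 1.88 in Rec vs. Str and 4.12 ± 2.06 in Str vs. Ctrl did not pass (adjusted p = 0.476 and 0.268). Neprilysin (*mme*), a membrane endopeptidase that degrades small peptide hormones, had 4.57, 76.5 and 5.59 FPKM in Rec, 5.56, 1.99 and 1.59 FPKM in Str, and 7.03, 7.91 and 24.9 FPKM in Ctrl. Str lay below Ctrl without overlap, and Rec-2 again stood apart. Neither Rec vs. Str (3.52 ± 1.18 log2, adjusted p = 0.0939) nor Str vs. Ctrl (−2.02 ± 1.11 log2, adjusted p = 0.316) passed. Rec-2 was thus the highest library for *treh*, *tmprss15*, *mme* and LOC113664000.

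Genes that mark the protein-absorbing posterior enterocyte in fish were uneven as well, and their part in these results was not tested. Cubilin (*cubn*), the endocytic receptor of that cell, was at 4.86, 0.0820 and 0.0248 FPKM in Rec, 0, 10.95 and 5.61 FPKM in Str, and 1.06, 64.7 and 0.0247 FPKM in Ctrl. The ileal bile acid binding protein gastrotropin (*fabp6*) was at 2515, 512 and 12067 FPKM in Rec, 31.6, 193 and 65.2 FPKM in Str, and 2369, 127 and 827 FPKM in Ctrl. For *cubn* the groups overlapped, and for *fabp6* Rec lay above Str without overlap. Summed over 7 such genes, the level was 523 to 12473 FPKM in Rec, 61.0 to 309 FPKM in Str and 472 to 2589 FPKM in Ctrl. Most of that sum was *fabp6* in most libraries, and without it the other 6 summed to 11.4 to 405 FPKM in Rec, 29.4 to 152 FPKM in Str and 109 to 345 FPKM in Ctrl, with overlap between all groups. Of the 6 that were tested, *fabp6* alone rose in Rec vs. Str (5.68 log2, adjusted p = 0.0449), and the median log2 fold change was −0.54. The endocytic adaptor disabled homolog 2, LOC113637659, was at 7.80, 3.98 and 6.96 FPKM in Rec, 23.4, 21.6 and 52.5 FPKM in Str, and 6.01, 7.68 and 5.23 FPKM in Ctrl. It fell in Rec vs. Str by 2.28 on the log2 scale (adjusted p = 0.0135) and rose in Str vs. Ctrl by 2.40 (adjusted p = 0.0144). Another locus of the list, the disabled homolog 2-like LOC113655157, did not share this pattern. It ranged from 2.78 to 40.6 FPKM in Rec, 4.04 to 34.9 FPKM in Str and 10.04 to 68.6 FPKM in Ctrl, with overlap between all groups. Its log2 fold changes of −0.33 in Rec vs. Str and −0.62 in Str vs. Ctrl did not pass (adjusted p = 0.894 and 0.798). Lipoprotein receptor *lrp2*, a defining marker, stayed under 1 FPKM in all libraries.

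**Figure D4:**
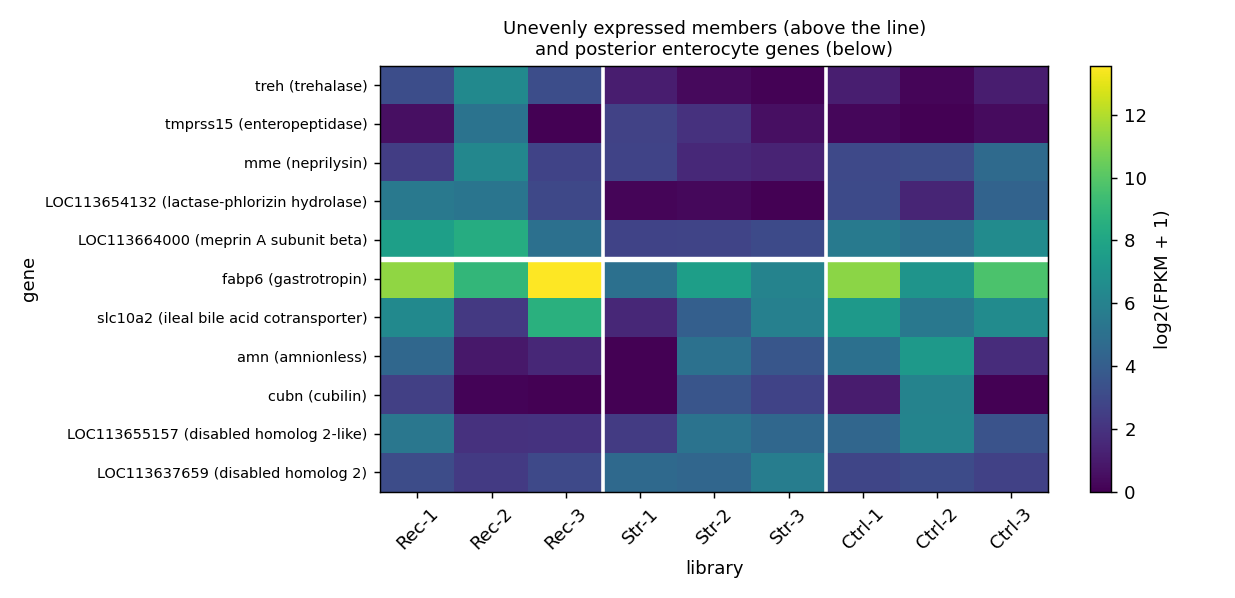
Heat map of log2(FPKM + 1) for 5 members (above the white line) and 6 posterior enterocyte genes that are not members (below), in the libraries of Rec, Str and Ctrl (x axis). Rec-2 is brightest for *treh* (86.1 FPKM), *tmprss15* (35.1 FPKM) and *mme* (76.5 FPKM), and *cubn* is brightest in Ctrl-2 (64.7 FPKM).

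Intracellular peptidases complete the hydrolysis of absorbed small peptides. Aspartyl aminopeptidase (*dnpep*), which removes N-terminal acidic residues in the cytosol, had 109, 120.3 and 129 FPKM in Rec, 25.4, 25.6 and 11.2 FPKM in Str, and 87.8, 46.0 and 63.1 FPKM in Ctrl. The 3 groups did not overlap, with Rec highest and Str lowest. It rose in Rec vs. Str by 2.64 ± 0.45 log2 (adjusted p = 0.0130), and the call held when any of the 9 libraries was left out (adjusted p of at most 0.0480). Str vs. Ctrl gave −1.66 ± 0.43 log2 (adjusted p = 0.0545). LOC113645723, a putative leucyl-type aminopeptidase named W07G4.4 after its worm relative, had 230.2, 293 and 362 FPKM in Rec, 103, 148 and 60.2 FPKM in Str, and 212, 163 and 196 FPKM in Ctrl. Its groups did not overlap either, in the same order, and it rose in Rec vs. Str by 1.61 ± 0.40 log2 (adjusted p = 0.0400).

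Cytosolic Xaa-Pro aminopeptidase (*xpnpep1*) had 195, 168 and 136 FPKM in Rec, 71.8, 95.2 and 50.6 FPKM in Str, and 106, 82.2 and 102 FPKM in Ctrl. Rec lay above both other groups, which overlapped each other. The rise in Rec vs. Str was 1.32 ± 0.35 log2 (adjusted p = 0.0492). *npepl1*, a probable aminopeptidase of the leucyl family, had 32.1, 47.7 and 41.4 FPKM in Rec, 20.3, 20.6 and 11.9 FPKM in Str, and 39.1, 37.6 and 42.2 FPKM in Ctrl. Str lay below both other groups, and the rise in Rec vs. Str was 1.33 ± 0.32 log2 (adjusted p = 0.0353). Of the members of this class, prolidase (*pepd*), which splits dipeptides ending in proline, was the most abundant, with 823, 843 and 669 FPKM in Rec, 142, 496 and 175 FPKM in Str, and 589, 599.8 and 457 FPKM in Ctrl. Rec lay above both other groups without overlap, but the log2 fold changes of 1.64 ± 0.52 in Rec vs. Str and −0.97 ± 0.51 in Str vs. Ctrl did not pass (adjusted p = 0.0811 and 0.295).

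One intracellular peptidase ran the other way at a low level. Aminopeptidase O (*cunh9orf3*) ranged from 1.07 to 1.32 FPKM in Rec, 2.36 to 3.23 FPKM in Str and 0.851 to 1.58 FPKM in Ctrl. It rose in Str vs. Ctrl by 1.34 ± 0.29 log2 (adjusted p = 0.0302) and fell in Rec vs. Str by 1.15 on the log2 scale (SE 0.29, adjusted p = 0.0394). The 10 other tested genes of the class passed in no comparison. They include the methionine aminopeptidases *metap1* and LOC113659966, which trim the first methionine from new proteins, with 17.3 to 22.6 and 23.6 to 39.2 FPKM in Rec, 21.7 to 31.4 and 35.3 to 41.3 FPKM in Str, and 26.0 to 30.6 and 24.97 to 44.9 FPKM in Ctrl. Puromycin-sensitive aminopeptidase (*npepps*) changed by −0.22 ± 0.21 log2 in Rec vs. Str. Cytosolic dipeptidase *cndp2*, the most abundant of the class after *pepd*, had 143, 475 and 379 FPKM in Rec, 129, 152 and 68.6 FPKM in Str, and 252, 118 and 128 FPKM in Ctrl. Its rise of 1.65 ± 0.59 log2 in Rec vs. Str did not pass (adjusted p = 0.113). Nor did that of dipeptidyl peptidase 3 (*dpp3*), at 1.46 ± 0.43 log2 (adjusted p = 0.0650). These uncalled peptidases were picked out after their values were seen.

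In the ER and lysosomal class no member passed. Log2 fold changes in Rec vs. Str were positive for 5 of 7, and for 46 of all 70 tested members. The share over all tested genes was not counted, so no conclusion is drawn from this direction. ER aminopeptidase LOC113638884, whose mammalian relatives trim peptides for antigen presentation, had the smallest p of the class: it ranged from 13.5 to 18.9 FPKM in Rec, 5.08 to 11.9 FPKM in Str and 15.5 to 20.1 FPKM in Ctrl (adjusted p = 0.0601 in Rec vs. Str and 0.0816 in Str vs. Ctrl). It was picked out after its values were seen.

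Most pancreatic enzymes were highest in 1 library. Of the 23 members of this class, 15 were highest in Ctrl-3, 17 reached 1 FPKM there and 9 reached it in no other library. Their summed level was 17.4 to 29.1 FPKM in Rec, 14.1 to 17.5 FPKM in Str, and 20.5, 11.5 and 302 FPKM in Ctrl. Elastase LOC113655918, named chymotrypsin-like elastase 2a, was at 0.915, 1.21 and 0.979 FPKM in Rec, 0 FPKM in each Str library, and 0, 0.0569 and 71.2 FPKM in Ctrl. It was not tested, since only 2 libraries reached 1 FPKM. The trypsin-2-like LOC113655609 had 44.2 FPKM in Ctrl-3 and 2.36 FPKM or less elsewhere, and the pancreatic alpha-amylase-like LOC113655435, the only abundant amylase locus in any library, had 21.1 FPKM in Ctrl-3 and 0.539 FPKM or less elsewhere. Both were picked out after their values were seen.

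Some pancreas genes that are not members were high in the same library, and others were not. Bile salt-activated lipase (*cel*) was at 20.8 FPKM in Ctrl-3 and 0.708 FPKM or less elsewhere. Phospholipase A2 LOC113633939, the pancreatic lipase-like LOC113639772 and colipase (*clps*) were at 3.82, 2.31 and 2.83 FPKM in Ctrl-3. In the other libraries they stayed at 0.290 FPKM or less. Together 9 exocrine pancreas genes summed to 0.574 to 2.55 FPKM in Rec, 0.429 to 0.887 FPKM in Str and 1.62, 2.64 and 32.5 FPKM in Ctrl. Of these, *rbpjl* was at 1.06 FPKM in Ctrl-3 and 1.39 FPKM in Ctrl-2, and *bhlha15* at 0.124 FPKM in Ctrl-3 and 0.391 FPKM in Ctrl-1. The granule protein GP2-like loci LOC113635467 and LOC113659572 were at 0 FPKM in Ctrl-3. Of the 6 pancreatic members that were tested, 5 were higher and 1 was lower in all Rec than in all Str libraries. Over all tested genes these shares were 11.8% and 17.2%. Among those higher in Rec, LOC113655609, LOC113639185, LOC113651486 and LOC113661841 stayed under 1 FPKM in every Str library. They met the filter through Rec and Ctrl libraries only, which favoured a level higher in Rec than in Str, so no conclusion is drawn from this count. None of the 6 passed, with median log2 fold changes of 2.27 in Rec vs. Str, −2.79 in Str vs. Ctrl and −1.47 in Rec vs. Ctrl. Without Ctrl-3 these medians were 2.29, −0.45 and 1.41, so that the sign of the last turned, and again none passed (edgeR, adjusted p of at least 0.0811). In libraries other than Ctrl-3, 2 members of the class exceeded 5 FPKM. The carboxypeptidase A1 precursor LOC113651484 was at 10.4, 14.1 and 7.89 FPKM in Rec, 7.49, 4.31 and 4.57 FPKM in Str, and 17.6, 7.05 and 12.9 FPKM in Ctrl, with 1.14 ± 0.48 log2 in Rec vs. Str (adjusted p = 0.164). The elastase-1-like LOC113644565 was at 0.593, 1.67 and 0.476 FPKM in Rec, 6.73, 7.30 and 6.31 FPKM in Str, and 0.902, 0.1004 and 15.1 FPKM in Ctrl, so that Str lay above Rec without overlap, at −2.68 ± 1.33 log2 in Rec vs. Str (adjusted p = 0.239). At lower levels, the carboxypeptidase A1-like LOC113651486 was at up to 3.13 FPKM in Rec and 3.16 FPKM in Ctrl-2. The untested trypsin-1-like LOC113639622 was at 0.250 FPKM or less in Rec, 0.0981, 4.62 and 1.28 FPKM in Str, and 0 FPKM in each Ctrl library. Its Str libraries held 8, 345 and 82 counts and lay above Ctrl without overlap. These carboxypeptidases, this elastase and this trypsin were picked out after their values were seen. Several pancreatic loci are neighbours of a similarly named locus, 352 bases apart for elastases LOC113655918 and LOC113655917 and 678 bases apart for trypsins LOC113644462 and LOC113644463. The split of reads between such neighbours is uncertain.

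**Figure D5:**
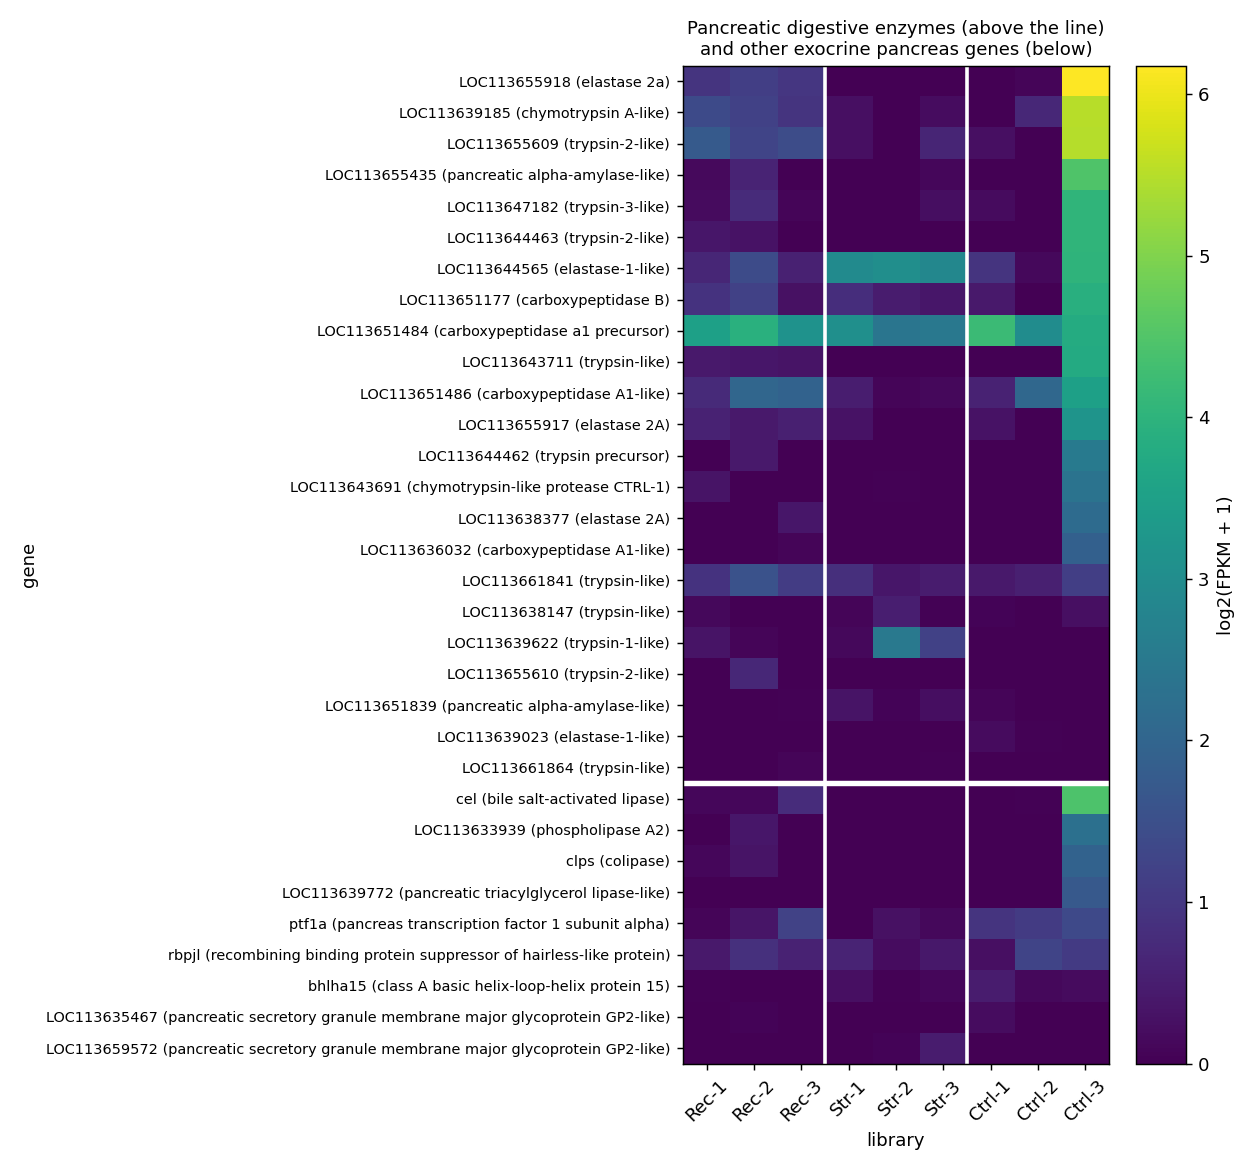
Heat map of log2(FPKM + 1) for the 23 pancreatic enzyme members (above the white line) and 9 other exocrine pancreas genes (below), in the libraries of Rec, Str and Ctrl (x axis). Ctrl-3 is the brightest column, with 71.2 FPKM for LOC113655918, and LOC113651484 is visible in all libraries.

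Among members with the same name words but other roles, LOC113639955, a probable carboxypeptidase X1 from a family of secreted, matrix-associated proteins, had the smallest p of all members. It was at 1.69, 1.04 and 1.29 FPKM in Rec, 8.52, 5.33 and 9.41 FPKM in Str, and 5.29, 6.07 and 5.18 FPKM in Ctrl. Rec lay below both other groups, which overlapped each other. It fell in Rec vs. Str by 2.42 on the log2 scale (SE 0.31, adjusted p = 0.0077), and the call held without any single library (adjusted p of at most 0.0333). Rec vs. Ctrl gave −1.89 ± 0.31 log2 with an unadjusted p of 0.000139 and an adjusted p of 0.383 in edgeR, and DESeq2 called it.

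Neurotrypsin is a secreted serine protease known from synapses in mammals. LOC113661102, neurotrypsin-like, had 3.56, 5.65 and 2.89 FPKM in Rec, 1.06, 0.797 and 0.448 FPKM in Str, and 6.85, 9.06 and 4.06 FPKM in Ctrl. Str lay below both other groups without overlap. It fell in Str vs. Ctrl by 3.08 on the log2 scale (SE 0.51, adjusted p = 0.0144), a call lost without Str-3 (adjusted p = 0.0594), and rose in Rec vs. Str by 2.55 ± 0.50 (adjusted p = 0.0191). *prss12*, the other tested neurotrypsin, had 19.5, 16.3 and 17.1 FPKM in Rec, 15.3, 8.25 and 7.25 FPKM in Str, and 11.5, 11.1 and 8.21 FPKM in Ctrl. Rec lay above both other groups, at 0.90 ± 0.34 log2 in Rec vs. Str (adjusted p = 0.134). Acid trehalase-like *pgghg*, a glucosidase that acts on collagen sugars in mammals, had 8.11, 14.0 and 11.8 FPKM in Rec, 15.6, 11.6 and 9.45 FPKM in Str, and 11.1, 13.1 and 14.5 FPKM in Ctrl, and its groups overlapped throughout. It was counted with the prohormone, matrix and surface proteins, of which the 12 tested besides LOC113639955 passed in no comparison. Carboxypeptidase E (*cpe*), which trims peptide hormones in endocrine cells and was picked out after its values were seen, ranged from 6.9996 to 17.6 FPKM in Rec, 11.9 to 24.1 FPKM in Str and 14.6 to 23.1 FPKM in Ctrl. The 7 tested tubulin enzymes, which add or remove glutamate chains on microtubules, ranged from 0.475 to 15.7 FPKM, and none passed.

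In Rec vs. Ctrl, 11 of 70 members were higher and 2 lower at an unadjusted p below 0.05, against backgrounds of 3.40% and 2.41% of all tested genes. DESeq2 called 0 higher and 1 lower among the members, against 0.470% and 0.197% of all tested genes, and limma on log2(FPKM + 1) or log2(FPKM + 0.1) called 0. The groups did not overlap for 8 members that were higher in Rec and 6 that were lower, against 2.56% and 7.42% of all tested genes. For those lower, the share of members was near that of all tested genes. Those higher were the carbohydrases *treh* and LOC113659427, the intracellular peptidases *pepd*, *xpnpep1*, *dnpep* and LOC113645723, carboxypeptidase O-like LOC113649534 and *prss12*. Those lower were the aminopeptidase N gene LOC113652607, carboxypeptidase X1 LOC113639955, carboxypeptidase Z LOC113657509, the dipeptidyl aminopeptidase-like LOC113649752, *metap1* and cytosolic carboxypeptidase 6 LOC113655724.

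Some markers of several cell types differed between these groups and others did not, and their part in the results was not tested. In bulk tissue, fewer cells of a type and less RNA per cell cannot be told apart. Non-member genes listed as enterocyte brush border markers, in 11 rows, summed to 2552 to 3565 FPKM in Rec, 671 to 779 FPKM in Str and 1309 to 2180 FPKM in Ctrl. The list also holds transcription factor genes and *fabp2*, which alone made up 2491 of the 3565 FPKM in Rec-3. Of the 8 tested, 2 rose and 0 fell in Rec vs. Str, and 0 rose and 1 fell in Str vs. Ctrl. For these and the other marker counts, the backgrounds were 5.03% higher and 4.11% lower in Rec vs. Str. In Str vs. Ctrl they were 2.78% and 3.10%. The fatty acid-binding protein *fabp2* was at 1250.3, 1133 and 2491 FPKM in Rec, 199, 95.5 and 109 FPKM in Str, and 662, 249.9 and 633 FPKM in Ctrl, and rose in Rec vs. Str by 3.68 log2 (adjusted p = 0.0091). Villin did not pass (adjusted p = 0.0862 in Rec vs. Str and 0.214 in Str vs. Ctrl). Nor did the transcription factor gene *hnf4a*, at 0.73 and −0.37 log2 (edgeR, adjusted p = 0.253 and 0.610). The homeobox CDX-1-like LOC113650178, at 0.47 and −0.55 log2, did not pass either (adjusted p = 0.540 and 0.506). The other CDX-1 locus of the list, LOC113654968, passed in both comparisons, at 1.32 and −1.33 log2 (edgeR, adjusted p = 0.0383 and 0.0462). Of 9 tested leukocyte genes 4 rose in Rec vs. Str and 4 fell in Str vs. Ctrl, with sums of 102 to 256 FPKM in Rec, 63.5 to 104 FPKM in Str and 146 to 400.4 FPKM in Ctrl. The 9 enteroendocrine genes summed to 25.8 to 149 FPKM in Rec, 57.9 to 115 FPKM in Str and 24.3 to 41.3 FPKM in Ctrl, and Str lay above Ctrl without overlap. Of the 6 tested, the granule protein secretogranin-3 (*scg3*) rose in Str vs. Ctrl by 1.96 log2 (adjusted p = 0.0161) and fell in Rec vs. Str by 2.11 on the log2 scale (adjusted p = 0.0120). Secretogranin-2 (*scg2*) fell in Rec vs. Str by 2.05 on the log2 scale (adjusted p = 0.0247). Peptide YY-like LOC113662151 was at 18.4, 134 and 3.08 FPKM in Rec, 3.33, 0 and 1.55 FPKM in Str, and 1.21, 0.424 and 2.35 FPKM in Ctrl. It went the other way in Rec vs. Str, at 5.27 log2, and did not pass (adjusted p = 0.0919). Liver genes, of which 4 of 10 were tested and none passed, summed to 3.62 to 18.0 FPKM in Rec, 12.1 to 34.2 FPKM in Str and 3.91 to 6.29 FPKM in Ctrl. Goblet cell genes summed to 167 to 926 FPKM in Rec, 149.9 to 249 FPKM in Str and 216 to 262 FPKM in Ctrl. Smooth muscle and stroma genes summed to 9997 to 17674 FPKM in Rec, 4046 to 23153 FPKM in Str and 5588 to 14580 FPKM in Ctrl. No tested gene of these last lists passed in any comparison.

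Other genes of KEGG's protein and carbohydrate digestion and absorption pathways, without collagens and elastin, numbered 121, of which 71 were tested. In Rec vs. Str 12 rose and 6 fell, against 5.03% and 4.11% of all tested genes, and in Str vs. Ctrl 4 rose and 6 fell, against 2.78% and 3.10%. The glucose-6-phosphate exchanger *slc37a4* had 13.02, 18.7 and 16.7 FPKM in Rec, 2.73, 2.93 and 1.40 FPKM in Str, and 10.8, 8.55 and 10.4 FPKM in Ctrl. Its groups did not overlap, with 2.90 ± 0.38 log2 in Rec vs. Str (adjusted p = 0.0077) and −2.04 ± 0.37 log2 in Str vs. Ctrl (adjusted p = 0.0176). The next 2 genes belong to basolateral amino acid exchange. The Y+L amino acid transporter 2-like LOC113644022, which exports cationic amino acids, had 1.25, 0.237 and 0.373 FPKM in Rec, 9.78, 12.3 and 16.3 FPKM in Str, and 0.797, 1.39 and 1.94 FPKM in Ctrl. It rose in Str vs. Ctrl by 3.30 ± 0.59 log2 (adjusted p = 0.0175) and fell in Rec vs. Str by 4.27 on the log2 scale (SE 0.62, adjusted p = 0.0083). The heavy chain that pairs with such transporters, a 4F2 antigen-like gene merged from LOC113662102 and LOC113662086, had 2.15, 2.39 and 4.21 FPKM in Rec, 14.4, 15.1 and 16.0 FPKM in Str, and 2.08, 4.04 and 5.06 FPKM in Ctrl. It rose in Str vs. Ctrl by 2.12 ± 0.32 log2 (adjusted p = 0.0122) and fell in Rec vs. Str by 2.29 on the log2 scale (SE 0.32, adjusted p = 0.0082). The last of the 4 genes with the smallest p was LOC113658214, a von Willebrand factor A domain protein, with 11.9, 20.3 and 30.5 FPKM in Rec, 4.97, 2.83 and 3.39 FPKM in Str, and 11.04, 21.8 and 19.5 FPKM in Ctrl. Str lay below both other groups, which overlapped each other. It fell in Str vs. Ctrl by 2.14 on the log2 scale (SE 0.37, adjusted p = 0.0161) and rose in Rec vs. Str by 2.59 ± 0.38 (adjusted p = 0.0085).

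Most calls among the members depended on single libraries. Those of LOC113639955 and *dnpep* in Rec vs. Str held without each of the 9 libraries and under 8 other settings, and the other calls were lost without at least 1 library. In Rec vs. Str, the members that rose numbered 11 in the full fit, 1 without Str-3, 3 without Rec-2, 4 without Str-1 or Ctrl-3, 6 without Ctrl-2 and 7 without Str-2. Those that fell numbered 3 in the full fit and 1 without Rec-2, Ctrl-2, Ctrl-3, Str-2 or Str-3. In Str vs. Ctrl, the 3 that rose became 1 without Ctrl-1, and 0 when Ctrl-2, Ctrl-3 or Str-3 was left out. The 2 that fell became 0 without Str-3, 1 without Rec-1, Str-1, Ctrl-2 or Ctrl-3, and 5 without Rec-3. Calls over all genes changed in these fits too. In Rec vs. Str they numbered 868 higher and 709 lower in the full fit, 114 and 133 without Str-3, 278 and 201 without Rec-2, 361 and 335 without Str-1, 453 and 377 without Str-2, 546 and 403 without Ctrl-3 and 599 and 498 without Ctrl-2. In Str vs. Ctrl they numbered 480 higher and 534 lower in the full fit, 66 and 49 without Ctrl-3, 90 and 39 without Str-3, 122 and 158 without Ctrl-2, 241 and 306 without Ctrl-1, 537 and 536 without Rec-1, and 685 and 738 without Rec-3. Without Str-1 they made up 1.38% and 1.16% of all tested genes.

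By member, the call of LOC113659427 in Rec vs. Str was lost without Rec-2, Str-2, Str-3 or Ctrl-3 (edgeR, adjusted p up to 0.111), and that of *treh* without Rec-2, any Str library or Ctrl-3 (up to 0.113). LOC113651933 lost its call without Rec-1, Rec-2, Str-1, Str-3, Ctrl-2 or Ctrl-3 (up to 0.140), *npepl1* without Rec-2, any Str library, Ctrl-2 or Ctrl-3 (up to 0.117), and LOC113645723 without Rec-2, Rec-3, Str-1, Str-3, Ctrl-2 or Ctrl-3 (up to 0.123). The calls of *enpep* held without 2 libraries (Rec-1 and Ctrl-1; adjusted p elsewhere up to 0.0983) and those of *xpnpep1* without 1 (Rec-3; up to 0.164). For carboxypeptidase O-like LOC113648743, the rise in Str vs. Ctrl was lost without Str-3 or any Ctrl library (up to 0.0866), and the fall in Rec vs. Str held only without Str-1 (up to 0.109). The rise of LOC113649534 in Str vs. Ctrl was lost without Str-3, Ctrl-2 or Ctrl-3 (up to 0.112), and the rise of LOC113661102 in Rec vs. Str without Rec-2, Str-2 or Str-3 (up to 0.0708). For *cunh9orf3* the rise in Str vs. Ctrl held only without a Rec library (elsewhere up to 0.116) and the fall in Rec vs. Str only without Ctrl-1 (elsewhere up to 0.129). None of these called fold changes turned its sign in any of these fits.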

How the data were processed

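The authors sequenced posterior intestine RNA on an Illumina NovaSeq, used Cutadapt 1.9 for trimming and aligned reads to the genome of *T. fulvidraco*. The submitters' processing notes list HISAT and StringTie with no version. No source used here gives the genome build or says how the counts were made. FPKM and expected counts per gene were deposited as the authors computed them. Counts are whole numbers in which 1 read pair is usually worth 4. In each pair of libraries of a group, at least 99.3% of genes differed in count.

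Counts were rounded and tested with edgeR 4.0.16 (TMM, quasi-likelihood F-test, two-sided, all 9 libraries in 1 fit with a factor for group) on genes that reached 1 FPKM in 3 or more libraries, with Benjamini-Hochberg adjustment. SE was derived from the log2 fold change and the F statistic. The test was checked on simulated data. Alternatives were DESeq2 1.42.0, limma 3.58.1 on log2(FPKM + 1) and log2(FPKM + 0.1), RLE scaling, no filter, counts divided by 4, only the 2 groups compared, a replicate block and leaving out each library. Software was Python 3.11.15 with pandas 2.3.3, numpy 2.4.6 and matplotlib 3.10.9, and R 4.3.3.

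Members, roles and marker lists were chosen with earlier results of these data known. Genes named with every value are called members whose mean reached 5 FPKM in a group, the most abundant member for each word of the rule, and 4 other pathway genes with the smallest p. Called members below that level are given by range. Further genes are given by class or marker list, or are marked as picked out after their values were seen. No sequences or coordinates are given.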

Additional observations from a re-analysis of the deposited data

How the results depend on the processing

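Among the 70 members, DESeq2 called 20 higher and 5 lower for Rec vs. Str (all genes 10.4% and 8.13%), 3 higher and 11 lower for Str vs. Ctrl (6.54% and 8.19%), and 1 lower for Rec vs. Ctrl (0.197%). In Str vs. Ctrl limma called 2 higher and 6 lower on log2(FPKM + 1) (2.87% and 3.13%), and 2 and 8 on log2(FPKM + 0.1) (2.48% and 3.38%), while counts divided by 4 gave 3 and 4 (2.95% and 3.27%). With only the 2 groups compared, Rec vs. Str had 5 higher and 1 lower (2.20% and 1.72%), and Str vs. Ctrl 5 in each direction (3.86% and 4.04%). Leaving out single libraries gave 1 to 11 higher and 1 to 3 lower for Rec vs. Str, 0 to 3 higher and 0 to 5 lower for Str vs. Ctrl, and 0 for Rec vs. Ctrl. The cause of these differences was not tested. Replicate numbers are shared between groups. Deviations from the group means correlated at −0.26 to 0.19 between same-numbered libraries and at −0.31 to 0.30 between differently numbered ones. With 3 libraries per group, this cannot show whether a shared number marks a bag or a batch. With the replicate number as a block, Rec vs. Str had 5 calls upward and 1 downward (3.00% and 2.17%), Str vs. Ctrl 1 in each direction (1.68% and 1.94%), and Rec vs. Ctrl 0.

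Over the 66 tested values of 23 named members, 1122 alternative values held 0 reversals of a called value, 979 kept their side of the threshold, 118 lost and 25 gained a call, and 26 uncalled values had the other sign. Limma moved the median of all genes by up to −0.19 log2 (Rec vs. Ctrl, log2(FPKM + 0.1)), against 0.00 in edgeR. With 3 fish per group, smaller changes could be missed. A level of 3 read pairs, or 12 counts in a library, was taken as the limit of detection, and it covers counting error only.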

Other observations

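Genes that the naming rule did not reach gave further values, and were picked out after their values were seen. The lysosomal alpha-glucosidase-like LOC113651735, which breaks down glycogen in lysosomes in mammals, was at 26.2, 16.1 and 18.1 FPKM in Rec, 7.61, 7.72 and 7.66 FPKM in Str, and 11.6, 22.8 and 23.1 FPKM in Ctrl, lowest in Str without overlap.

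Stomach proteases were low. Gastricsin-like LOC113645383 was at 0.991, 4.06 and 0.195 FPKM in Rec, 0, 0 and 0.0481 FPKM in Str, and 0.460, 0 and 0.193 FPKM in Ctrl, with its highest value in Rec-2, the library that was also highest for *treh*, *tmprss15* and *mme*.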
